A study of Mus musculus with 105 samples.

Results

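Glucuronidation, sulfation and glutathione conjugation genes were followed through diethylnitrosamine (DEN) hepatocarcinogenesis in mouse liver. The set was every row of the deposited table whose symbol begins with Ugt1, Ugt2 or Ugt3, with Sult and a digit, or with Gst, a class letter among a, k, m, o, p, t and z, and a digit. That rule took 44 of 12966 genes, in 15 families: 21 glutathione S-transferases (GST), 10 sulfotransferases (SULT) and 13 UDP-glucuronosyltransferases (UGT). All 44 were tested, and the filter on low values removed none of them.

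The data were 105 RNA-seq libraries of liver in 30 groups, and all mice, WT included, had been given DEN, a carcinogen that hepatocytes activate to a DNA-alkylating agent. Sequencing group 1 held WT, IKO (labelled Ikk KO) and SKO (Shp2 KO, gene Ptpn11) with n = 4 per group, and sequencing group 2 held its own WT, BKO (beta catenin KO, gene Ctnnb1) and MKO (cMet KO, gene Met) with n = 3. Livers of every genotype came from mice of 1, 3, 5 or 8 months of age, with tumour libraries and libraries of surrounding non-tumour tissue at 8 months. The series title places the losses in hepatocytes. The labels used here name no Cre driver, Ikk subunit, sex, or DEN dose, so those limits of the models are not given. They number biological replicates without naming animals, so p-values measure the spread between these libraries. IKO and SKO share their WT libraries, as do BKO and MKO, and the sequencing groups were not compared with each other.

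Conjugating enzymes make lipophilic compounds water-soluble. UGTs transfer glucuronic acid from UDP-glucuronate to substrates such as bilirubin, steroids and phenols in the endoplasmic reticulum. SULTs transfer sulfate from PAPS to phenols, oestrogens, bile acids and hydroxysteroids in the cytosol. GSTs join glutathione to electrophiles, and their alpha, mu, pi, theta, omega, kappa and zeta classes differ in substrate and location. In mouse liver several of these genes are zonated along the lobule, several respond to the receptors CAR, PXR and AhR or to the factor NRF2, and some differ between the sexes.

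Levels below are normalised reads, and differences are log2 differences ± SE on the deposited log2 scale, which understates changes of genes with few reads. A gene is called at an adjusted p below 0.05. Reads over the listed genes were 4676444 to 10863046 per library in sequencing group 1 and 6650086 to 20231121 in sequencing group 2. The 10 hepatocyte markers summed to 323427 or more in every library, and Alb, Apoa1 and Ttr were each above 0 in all of them. In non-tumour liver Ptpn11 had a median of 158.9 in SKO against 365.8 in WT, but 1 of the SKO libraries at 3 months (375.1) lay within the WT range of 291.8 to 432.8. Met had 182.2 (146.6 to 259) in MKO against 250.3 (187.8 to 273.3) in WT. Ikbkb had 274.8 (185.2 to 382.7) in IKO against 338.3 (274.7 to 478.4), and Ctnnb1 had 118.1 in BKO against 121.8. A 3′ tag can lie outside the deleted part, so the Ctnnb1 level checks nothing about that label. The same limit holds for Met and Ikbkb, whose ranges overlapped those of WT, and the label does not name Ikbkb. These are bulk samples, in which fewer cells of a type and less RNA per cell cannot be told apart.

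Gene position and sequence limit what single rows can tell. In GRCm38 (GENCODE M21), 43 of the 44 genes were matched, on 12 chromosomes. The 7 mu class genes lie within 149.1 kb of chromosome 3 in the order Gstm5, Gstm7, Gstm6, Gstm3, Gstm2, Gstm1 and Gstm4. All 7 UGT2B genes, Ugt2a3, Sult1b1 and Sult1d1 lie within 679.3 kb of chromosome 5. For Ugt1a1, Ugt1a5 and Ugt1a6a every stretch of 36 bases in the last 300 bases of the transcript also occurs in other UGT1A genes. Ugt1a7c is among those genes, so the UGT1A rows may split or share reads. For Gstp1 and Gstp2 that share is likewise 100% and for Gsta1 it is 88.3%. It is 83.4% for Sult2a2 (with other Sult2a genes) and 48.3% for Gsta2, while no mu class gene shares any. Sult5a1 (24.5%) and Gstt2 (20.8%) share smaller parts with genes of other families. Of the exonic bases of Gstt3, 13.6% lie in exons of Gm20441. Ugt1a7c shares no stretch of its own last 300 bases, but 54.6% of its exonic bases lie in exons of other UGT1A genes. The method reads 3′ ends, so these rows are uncertain. Gsta5, Sult2a2, Sult2b1 and Sult4a1 were at 0 in 67, 80, 64 and 50 of 105 libraries.

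In non-tumour liver, averaged over the 4 ages, 30 of the 44 genes were called in at least 1 knockout, as were 41.8% of all genes. In BKO 13 genes were lower and 3 higher (9.04% and 10.6% of all genes), in SKO 13 and 9 (10.9% and 12%), in IKO 5 and 1 (5.17% and 3.87%) and in MKO 2 and 3 (1.13% and 1.58%). Sult1d1, Ugt1a1 and Ugt1a7c were each called lower in 3 knockouts. Gsta3, Gstt2 and Gstt3 were called in opposite directions in different knockouts. The shares of all genes with such repeated or opposite calls were not counted. Each of the 44 was called in at least 1 of 14 comparisons when tumours were added, as were 76.6% of all genes. The kappa, UGT2A, UGT3A and SULT4 families had no call in non-tumour liver: in WT of sequencing group 1 Gstk1 had a median of 638.3, Ugt2a3 of 182.2 and Ugt3a2 of 2886, and Sult4a1 of 0.

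**Figure D1:**
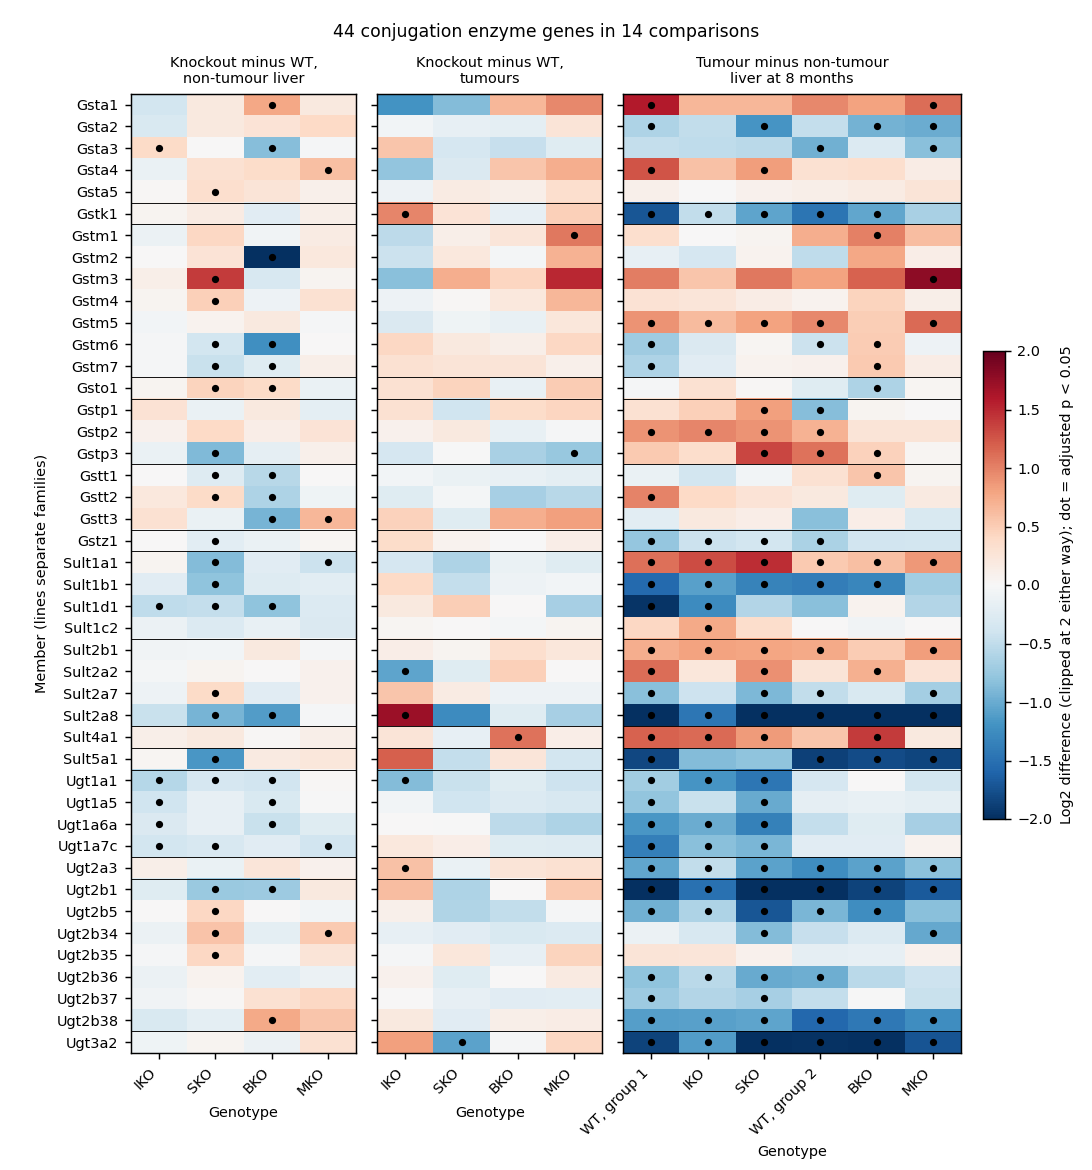
Log2 differences of the 44 genes, 1 row per gene with lines between families, in 14 comparisons: knockout minus WT in non-tumour liver, knockout minus WT in tumours, and tumour minus non-tumour liver. Red is higher and blue is lower, colours are clipped at 2, and dots mark adjusted p below 0.05. In non-tumour liver of sequencing group 1 (n = 4), SKO had 22 calls (12% of all genes higher, 10.9% lower) and IKO 6 (3.87% and 5.17%). In sequencing group 2 (n = 3), BKO had 16 (10.6% and 9.04%) and MKO 5 (1.58% and 1.13%). For tumour minus non-tumour liver, WT had 30 calls in sequencing group 1 (22.9% and 19.2%) and 20 in sequencing group 2 (15% and 12%).

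In livers labelled beta catenin KO, 3 mu class genes, all theta class genes and Gsta3 were lower, and Gsta1 and Gsto1 were higher. Of the 44 genes 3 were called higher and 13 lower, against 10.6% higher and 9.04% lower of all genes. The median difference was -0.16 over the 44 and 0.01 over all genes. Of 21 GSTs 7 were lower and 2 higher. Of 4 UGT1A genes 3 were also lower.

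Gstm2, a mu class transferase, had 307.8, 379.3 and 511.1 normalised reads in the WT libraries at 1 month. BKO had 41.24, 52.03 and 61.48 at that age, and the groups did not overlap at any of the 4 ages. The difference was -2.0 ± 0.18 (adjusted p = 1.58e-10). At 8 months WT had 841, 805.4 and 368.1, and BKO had 281.1, 195 and 236.3. Its 1-month and 3-month differences were -2.45 and -2.56, its 5-month and 8-month differences -1.65 and -1.33. The spread within BKO was widest at 5 months, with 269.3, 55.16 and 403.6. The interaction with stage did not pass for Gstm2 or for any of the 44 in BKO.

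Gstm6, in the same cluster, had 2130, 2520 and 2563 in WT at 1 month and 726.9, 761.6 and 1020 in BKO. The groups did not overlap at any of the 4 ages, and the difference was -1.23 ± 0.08 (adjusted p = 7.62e-13). Between them on the chromosome lies Gstm3, which ranged from 108 to 3004 (median 571.5) in BKO and from 577.8 to 952.4 (median 715.4) in WT and was not called. Gstm1 ranged from 29797 to 64818 in BKO and from 34065 to 66106 in WT. Gstm1 was not called either, and the third mu gene that fell was Gstm7 (-0.25 ± 0.09, adjusted p = 0.0419), whose call was lost with some single libraries left out.

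The alpha class split. Gsta3, whose product conjugates aflatoxin epoxide in mice, had 3468, 3320 and 3614 in WT at 5 months and 1928, 1618 and 1857 in BKO. It was lower at all 4 ages without overlap (-0.85 ± 0.10, adjusted p = 1.59e-07). Gsta1 moved the other way, from 2.625, 1.798 and 0.729 in WT to 11.51, 14.39 and 18.86 in BKO at 1 month. Its rise of 0.77 ± 0.19 (adjusted p = 0.00342) rests on few reads, and 88.3% of its 3′ end is shared with Gsta2 and related genes. Gsta3 lies on chromosome 1, apart from Gsta4, Gsta1 and Gsta2 on chromosome 9.

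**Figure D2:**
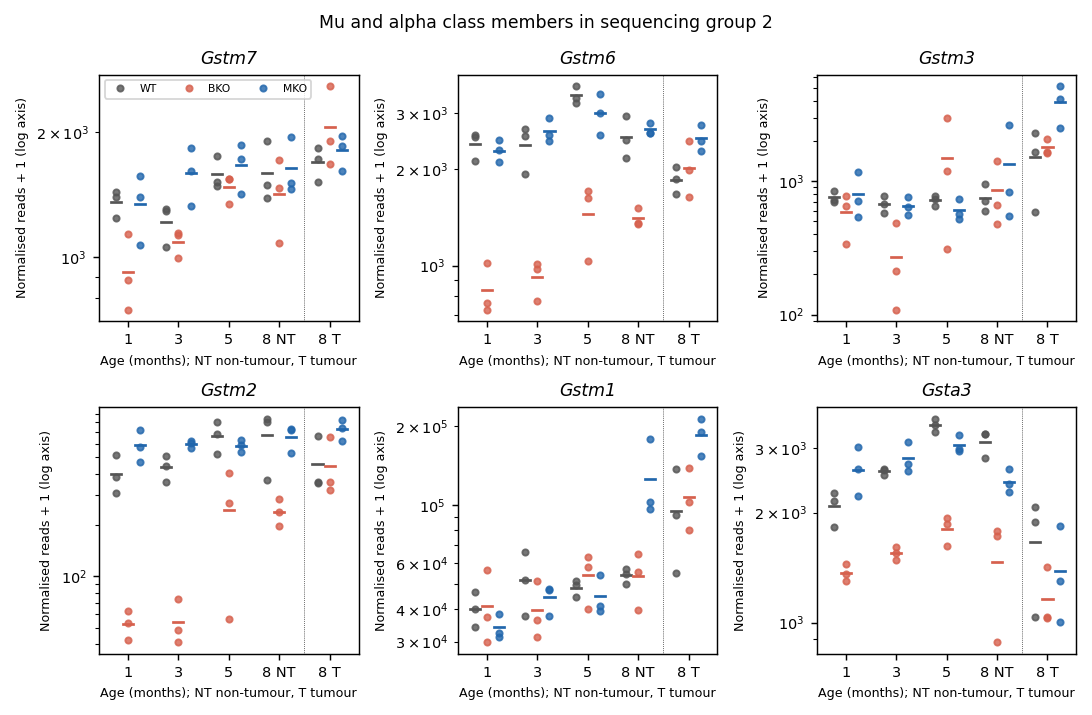
Normalised reads plus 1 (log axis) of 5 mu class genes and Gsta3 in sequencing group 2, by age and tissue, for WT (grey), BKO (red) and MKO (blue), with 1 point per library and a bar at the mean. BKO lies below WT for Gstm2, Gstm6 and Gsta3 in non-tumour liver at every age, and MKO Gstm1 lies above WT at 8 months.

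Upstream sequences are shown for Gstm2, which had the largest fall in BKO, for its chromosome 3 neighbour Gstm3, which had the largest rise in SKO (below), and for Gsta3. RefSeq promoter windows (GRCm38.p6, 250 bases before to 50 bases after the start) were found for 37 of the 44 genes. They are printed on the gene's strand, with capitals marking the antioxidant response element TGACNNNGC or the TCF motif CTTTGA on either strand. Gstm2 covers chr3:107986371-107986670 and Gstm3 covers chr3:107969125-107969424, both on the minus strand, and Gsta3 covers chr1:21240335-21240634 on the plus strand.
Gstm2: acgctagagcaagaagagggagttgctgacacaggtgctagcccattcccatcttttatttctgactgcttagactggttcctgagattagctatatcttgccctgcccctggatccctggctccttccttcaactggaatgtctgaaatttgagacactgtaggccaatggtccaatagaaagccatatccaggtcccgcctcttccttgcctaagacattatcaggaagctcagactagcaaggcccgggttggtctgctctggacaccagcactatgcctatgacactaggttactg
Gstm3: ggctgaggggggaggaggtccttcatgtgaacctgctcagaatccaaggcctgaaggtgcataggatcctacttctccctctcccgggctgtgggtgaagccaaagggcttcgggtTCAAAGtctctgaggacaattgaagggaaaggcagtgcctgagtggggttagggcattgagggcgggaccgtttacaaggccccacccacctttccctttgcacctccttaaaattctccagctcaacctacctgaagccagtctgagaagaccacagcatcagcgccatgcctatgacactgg
Gsta3: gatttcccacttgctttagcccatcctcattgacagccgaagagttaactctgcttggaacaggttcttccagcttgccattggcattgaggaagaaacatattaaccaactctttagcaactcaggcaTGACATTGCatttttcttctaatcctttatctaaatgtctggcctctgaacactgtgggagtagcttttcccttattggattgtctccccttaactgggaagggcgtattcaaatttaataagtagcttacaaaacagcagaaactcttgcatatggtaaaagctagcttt
Gstm2 held neither motif, nor did the 3 windows of Gstm6, Gstm3 held 1 TCF match and Gsta3 held 1 antioxidant element. The 37 genes had 47 windows. The antioxidant element was found in 3 of these 47 (in Gsta3, Gstm5 and Gstm7) and in 12.4% of all 32851 windows. The TCF motif was found in 9 of the 47 windows and 16.0% of all windows. The AhR core GCGTG was found in 12 of the 47 and 32.4% of all. GTTAAT, part of the HNF1 motif, was found in 6 of the 47 and 7.1% of all. Both strands were searched, no motif contains another, and the matches describe letters only.

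All 3 theta class genes fell in BKO. Gstt3 had 856.2, 1252 and 945.8 in WT at 5 months and 324.2, 261.6 and 355 in BKO. Its difference over the 4 ages was -0.93 ± 0.19 (adjusted p = 0.000419), followed by Gstt2 at -0.62 (adjusted p = 0.00111) and Gstt1 at -0.55 (adjusted p = 9.11e-05). All 3 genes lie within 63.3 kb of chromosome 10. Gsto1, the omega class gene, was higher in BKO, with 2118, 1836 and 1957 at 3 months against 955.7, 984 and 1225 (0.39 ± 0.10, adjusted p = 0.00544 over the ages).

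Among SULT and UGT genes, those lower in BKO were Sult1d1, Sult2a8, Ugt2b1, Ugt1a6a, Ugt1a1 and Ugt1a5. Sult1d1, a phenol sulfotransferase, had 398.6, 502.7 and 294.9 in WT at 5 months and 216.5, 94.56 and 106.8 in BKO (-0.81 ± 0.20, adjusted p = 0.00324 over the ages). Sult2a8, a liver bile acid sulfotransferase, was -1.11 ± 0.37 (adjusted p = 0.029), Ugt2b1 was -0.73 ± 0.25 (adjusted p = 0.0369), and both calls were lost with some single libraries left out. Ugt1a6a, whose product glucuronidates planar phenols, was -0.45 (adjusted p = 0.0183), and Ugt1a1, the bilirubin enzyme, was -0.39 (adjusted p = 0.00408). Ugt2b38 rose by 0.76 ± 0.21 (adjusted p = 0.00879), with 225.4, 194.8 and 102.7 in BKO at 1 month against 45.28, 65.91 and 86.76.

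By age, calls in BKO numbered 2 at 1 month (4.37% of all genes called), 3 at 3 months (1.54%), 12 at 5 months and 3 at 8 months (4.91%). At 5 months all 12 were lower, against 3.51% of all genes higher and 2.93% lower. That count was 6 without the first WT library of that age and 7 without BKO replicate 1 or 3 or the second WT library. Gstm2 and Gstm6 were called at each of the 4 ages. Pericentral hepatocyte markers moved in the same livers: 16 of 18 were lower, and none was at 0 in all libraries of a group. Their summed level was 1569 to 15012 in BKO against 17279 to 43312 in WT. Stellate markers (12 of 14 higher, sum 4155 to 7022 against 2450 to 4675) and macrophage markers (8 of 15 higher, sum 4997 to 8967 against 3132 to 9118) moved as well. Cholangiocyte markers were higher in 8 of 12 (sum 1035 to 2634 against 850.1 to 1070), periportal markers in 6 of 15 (54498 to 121890 against 60615 to 89634), and male-biased genes lower in 7 of 20 and higher in 1 (50266 to 211552 against 133329 to 257284). The part of these groups in the conjugation results was not tested.

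SKO had more called conjugation genes in non-tumour liver (22) than IKO of the same sequencing group (6). Of the 44, 9 were higher and 13 lower in SKO, against 12% and 10.9% of all genes, and the median difference was 0.02 against 0.01. The balance depended on scaling: on log2(CPM + 1) of recovered reads 15 were higher and 9 lower, where the median of all genes shifted by 0.135. SULT genes were mostly on the low side (1 higher, 5 lower of 10), and GST genes were evenly split (5 and 5 of 21), as were UGT genes (3 and 3 of 13).

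The sulfotransferases that fell in SKO span 3 families. Sult1b1, which sulfates thyroid hormones and phenols, had 209.6, 140.5, 151.5 and 170.4 in WT at 5 months and 37.75, 63.71, 35.52 and 55.63 in SKO. The groups did not overlap at 3 of the 4 ages (-0.81 ± 0.10, adjusted p = 8.6e-09). Sult1a1, the main phenol sulfotransferase, had 1399, 1451, 1661 and 1263 in WT and 434.1, 564.9, 958 and 619.1 in SKO at the same age (-0.86 ± 0.14, adjusted p = 6.7e-06). Sult5a1, a sulfotransferase with little known of its substrates, fell by 1.17 ± 0.22 (adjusted p = 5.86e-05). At 8 months it had 62.82, 99.86, 73.69 and 109.9 in WT and 0, 10.38, 61.65 and 33.38 in SKO, with 1 SKO library at 0.

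Sult2a8 had 2107, 2364, 2970 and 2006 in WT non-tumour liver at 8 months and 308.2, 409, 2224 and 1503 in SKO. The SKO libraries there ran from far below WT to within its range, and over the 4 ages the difference was -0.93 ± 0.22 (adjusted p = 0.00109). Sult2a7, a close relative read at low depth, was higher (0.38, adjusted p = 0.00418). Of 2 Sult2a8 windows, the one at chr7:14438502-14438801 holds neither motif, and the one at chr7:14446538-14446837, minus strand, holds 2 TCF matches in capitals.
Sult2a8: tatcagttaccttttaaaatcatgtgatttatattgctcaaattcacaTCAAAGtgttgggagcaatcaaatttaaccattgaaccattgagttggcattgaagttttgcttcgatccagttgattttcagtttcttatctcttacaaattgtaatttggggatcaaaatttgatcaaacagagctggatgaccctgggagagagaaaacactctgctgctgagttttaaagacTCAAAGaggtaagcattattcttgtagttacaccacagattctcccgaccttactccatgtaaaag

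Mu class genes moved apart in SKO within the same 149.1 kb. Gstm3 had 730.9, 439.1, 631 and 533.7 in WT at 1 month and 6357, 3269, 3205 and 3460 in SKO, with no overlap. Its difference over the 4 ages was 1.40 ± 0.25 (adjusted p = 2.19e-05). At 8 months SKO had 1527, 1018, 358.9 and 1185 against 622.9, 489.6, 466.3 and 654.2, and those ranges overlapped. Gstm4, the gene at the far end of the cluster, rose by 0.47 ± 0.12 (adjusted p = 0.00209). Gstm7 and Gstm6, toward the other end, fell by 0.44 ± 0.08 (adjusted p = 2.94e-05) and 0.37 (adjusted p = 0.000569). Gstm1 was not called, although the summed mu class reads at 1 month were 83435 ± 5182 in SKO and 58138 ± 13740 in WT (SD, n = 4).

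Gstp3, a pi class gene, had 224.6, 246.7, 286.9 and 290 in WT at 5 months and 99.62, 123.2, 93.55 and 77.39 in SKO. It was lower at all 4 ages and without overlap at 2 of them (-0.89 ± 0.11, adjusted p = 2.04e-08). Its relatives Gstp1 and Gstp2, which share 3′ ends, were not called. Gsto1 rose by 0.44 ± 0.07 (adjusted p = 1.2e-05), with 1971, 2248, 2057 and 2093 at 1 month against 1387, 1113, 1253 and 1265. Gstz1, the maleylacetoacetate isomerase of tyrosine breakdown, was slightly lower (-0.21, adjusted p = 0.00489).

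The UGT2B cluster also split. Ugt2b34 had 2871, 2986, 2768 and 2747 in SKO at 1 month and 1492, 1419, 1504 and 1412 in WT. The groups did not overlap at 3 of 4 ages (0.57 ± 0.08, adjusted p = 5.41e-07). Ugt2b5 (0.42 ± 0.10, adjusted p = 0.000889) and Ugt2b35 (0.41 ± 0.11, adjusted p = 0.00532) rose too, while Ugt2b1 fell by 0.74 ± 0.16 (adjusted p = 0.000575). Of the UGT1A genes, Ugt1a1 (-0.33, adjusted p = 0.0355) and Ugt1a7c (-0.32, adjusted p = 0.0453) were lower, and both calls were lost with some libraries left out.

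The balance of calls in SKO was not alike at single ages. At 1 month 14 genes were higher and 5 lower (8.74% and 7.34% of all genes). At 3 months 2 were called, Gsto1 and Ugt2b34 (5.19% of all genes), and none of the 44 without SKO replicate 1 or 4 or WT replicate 1 of that age, under quantile normalization, on log2(CPM + 1) or with only the groups compared. At 5 months 8 were lower and none higher (2.61% of all genes higher, 3.41% lower), or 5 without SKO replicate 1 or 3 of that age. At 8 months 1 was higher and 7 lower (2.54% and 2.49%). At 1 month the rises included Gstm3 (2.71), Gstt3 (1.20), Gstm4 (1.09), Gsta4 (1.03), Gstm2 (0.98) and Gstk1 (0.94). At 5 months the falls included Sult1b1 (-1.41), Gstp3 (-1.22) and Sult1a1 (-1.18), and at 8 months Sult5a1 (-1.51), Sult2a8 (-1.49) and Ugt2b1 (-1.11). The 8-month count of 8 ranged from 0 to 6 with 1 library left out, and was 0 without the first WT library of that age, 4 on log2(CPM + 1), 1 with only the groups compared and 14 with library weights.

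The interaction of genotype with stage passed for 4 genes in SKO, against 5.68% of all genes. These were Gstk1 (adjusted p = 0.00684), Gstt3 (0.0223), Gstm7 (0.0341) and Gstt2 (0.038), a count that was 1 under quantile normalization and 15 with library weights. Gstk1, the mitochondrial and peroxisomal kappa class enzyme, had 858.9, 1244, 1256 and 1024 in SKO at 1 month and 469.4, 545, 589.2 and 611.5 in WT, a difference of 0.94. At 8 months its difference was -0.40 and not called. Gstt3 went from 1.20 at 1 month to -0.93 at 5 months, where it was not called. Gstm7 was -0.83 at 1 month, 0.09 at 3 months and -0.60 at 5 months. At 1 month it had 1463, 3000, 1578 and 1615 in WT and 875.3 to 1213 in SKO. The second WT library there stood apart, and the interaction was not fitted without it.

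**Figure D3:**
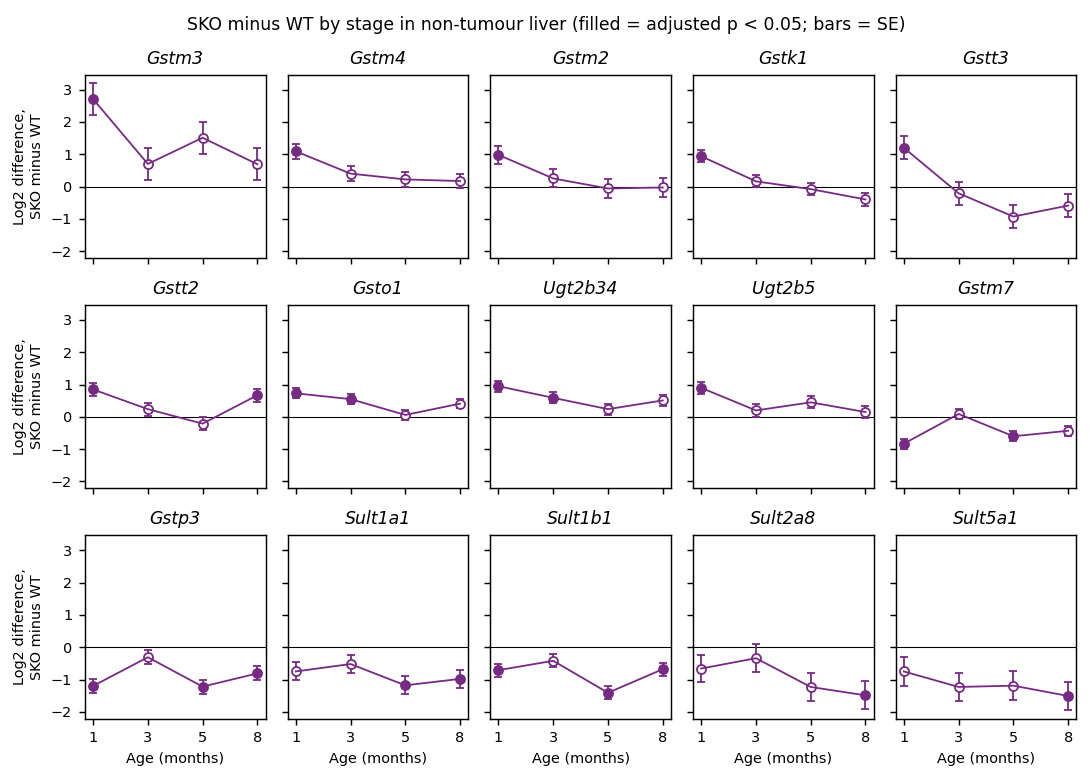
Log2 difference between SKO and WT (SE bars) at 1, 3, 5 and 8 months in non-tumour liver for 15 genes, with filled points at adjusted p below 0.05. GST and UGT2B rises are filled at 1 month (Gstm3 at 2.71), and the filled points at 5 and 8 months are mostly falls of Gstp3 and the SULT genes.

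Other cell types and groups moved in SKO liver. Macrophage markers were called higher in 13 of 15 (sum 2784 to 9233 against 2272 to 8162 in WT, none at 0 in all libraries of a group). Hepatocyte markers were higher in 1 and lower in 5 of 10 (sum 323427 to 899087 against 365749 to 1002599), and male-biased genes higher in 2 and lower in 11 of 20 (sum 49826 to 213147 against 121932 to 252188). Periportal markers were lower in 10 of 15 (27897 to 87243 against 54558 to 106119), proliferation genes higher in 9 of 12 (111.3 to 740 against 98.87 to 364.3) and mitochondrial genome transcripts, read as a sign of RNA quality, lower in 3 of 7 (1373388 to 3020906 against 1640862 to 3131040). Their part in the results was not tested. Without the SKO library at 3 months whose Ptpn11 was at the WT level, the count of called conjugation genes was 22 again.

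Genes that supply the cosubstrates were also called in SKO, where 12% of all genes were higher and 10.9% lower. Of 6 genes of UDP-glucuronate supply, 3 were higher and 1 lower in SKO: Ugdh, which makes UDP-glucuronate, rose by 1.06 (adjusted p = 1.79e-08), Slc35d1, its transporter, by 0.49, and Ugp2, which makes UDP-glucose, fell by 0.84 (adjusted p = 2.6e-07). Of 11 sulfate supply genes, 1 was higher and 3 lower, among them both PAPS synthases, Papss2 (-0.74) and Papss1 (-0.41). Of 16 glutathione supply genes, 5 were higher and 3 lower, led by Cth, which makes cysteine (0.98, adjusted p = 8.68e-09), with Gsr (0.38), Gclm (0.32) and Gss (0.26). Of 20 NRF2-associated genes 13 were higher and none lower (median 0.41 against 0.01 over all genes), such as Gpx2 (1.14), Cbr3 (1.48) and Nqo1 (0.82), while Nfe2l2, which encodes NRF2, was lower by 0.23. Of 20 xenobiotic regulators 1 was higher and 4 lower in SKO. These lists were chosen with earlier results known and are described by counts only.

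The other knockouts gave these counts. IKO called 1 sulfate supply gene higher and 2 lower, with Papss1 at -1.35 and Papss2 at -0.35, and no glucuronate supply or NRF2-associated gene. Of 16 glutathione supply genes IKO called 1 higher and 1 lower, and of 20 xenobiotic regulators 3 higher and 4 lower. Of all genes 3.87% were higher and 5.17% lower in IKO. BKO called 3 of 11 sulfate supply genes lower, with Cdo1, the cysteine dioxygenase, at -0.50. Of 20 NRF2-associated genes BKO called 4 higher and none lower, and of 16 glutathione supply genes 3 higher and 1 lower. Of 6 glucuronate supply genes it called 1 higher and 1 lower. Of 20 xenobiotic regulators 8 were lower in BKO and none higher, led by Nr1i3, which encodes CAR (-1.58, adjusted p = 2.09e-06), and Ahr (-1.08, adjusted p = 4.35e-06). Of all genes 10.6% were higher and 9.04% lower in BKO. MKO called Papss2 (-0.32) and Ppara (-0.46) lower and nothing in the glucuronate, glutathione or NRF2-associated lists. Of all genes 1.58% were higher and 1.13% lower in MKO.

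In IKO, UGT1A genes were lower. Of the 44, 1 was higher and 5 lower, against 3.87% and 5.17% of all genes (median -0.04 against 0.00). All 4 UGT1A genes were called, and they overlap in 1 locus on chromosome 1. The rows of Ugt1a1, Ugt1a5 and Ugt1a6a share their 3′ ends and so are not separate measurements. The last 300 bases of Ugt1a7c were not shared, but stretches of those other 3′ ends also occur in Ugt1a7c. Of its exonic bases 54.6% lie in exons of other UGT1A genes, so its row is uncertain as well. Ugt1a1 had 40.6, 52.93, 27.87 and 35.07 in WT at 1 month and 7.768, 17.29, 12.58 and 5.765 in IKO. It was lower at all 4 ages and did not overlap at 2 (-0.57 ± 0.12, adjusted p = 0.000956). Ugt1a5 (-0.40 ± 0.10, adjusted p = 0.00806) fell from 8.913, 5.881, 1.991 and 3.288 to 3.329, 0, 0 and 0.9608 at that age, near the detection limit. Ugt1a7c (-0.36 ± 0.12, adjusted p = 0.0482) and Ugt1a6a (-0.29 ± 0.09, adjusted p = 0.0307) followed, with calls lost when some libraries were left out. The count of 6 was 3 without the third IKO library at 8 months or the second WT library at 5 months.

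Sult1d1 was the other gene lower in IKO. It ranged from 59.57 to 412.3 (median 121.2) in IKO and from 98.64 to 524.9 (median 189.8) in WT, lower on average at all 4 ages with overlap at each (-0.51 ± 0.14, adjusted p = 0.0165). Gsta3 was higher in IKO, with 9090, 4733, 6195 and 4106 at 1 month against 3104, 2231, 2839 and 2789 in WT. That rise was 1.07 at 1 month, and over the 4 ages it was 0.39 ± 0.13 (adjusted p = 0.0392), higher at 2 of 4 ages. That call was lost under quantile normalization and on log2(CPM + 1), where no gene was called higher.

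By age in IKO, 4 genes were called at 1 month (9.17% of all genes), 0 at 3 months (0.201%), 1 at 5 months (1.45%) and 0 at 8 months (0.201%). The 1-month count was 2 without the first WT library of that age, and the 5-month count was 0 without the first IKO or the first WT library of that age. Unadjusted p fell below 0.05 for 2 genes at 3 months and 1 at 8 months, and limma-voom on recovered reads also called none. At 1 month Ugt2b38 (-1.29) and Ugt1a1 (-0.97) were lower and Gsta3 (1.07) and Gstt3 (1.15) higher. At 5 months Sult1b1 had 45.9, 112.5, 81.82 and 93.35 in IKO against 209.6, 140.5, 151.5 and 170.4 in WT (-0.86, adjusted p = 0.0159). No interaction with stage passed (0 of 44, 0.0694% of all genes, 6 at an unadjusted p below 0.05), the smallest adjusted p being 0.181 for Sult1b1, and limma-voom called none.

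**Figure D4:**
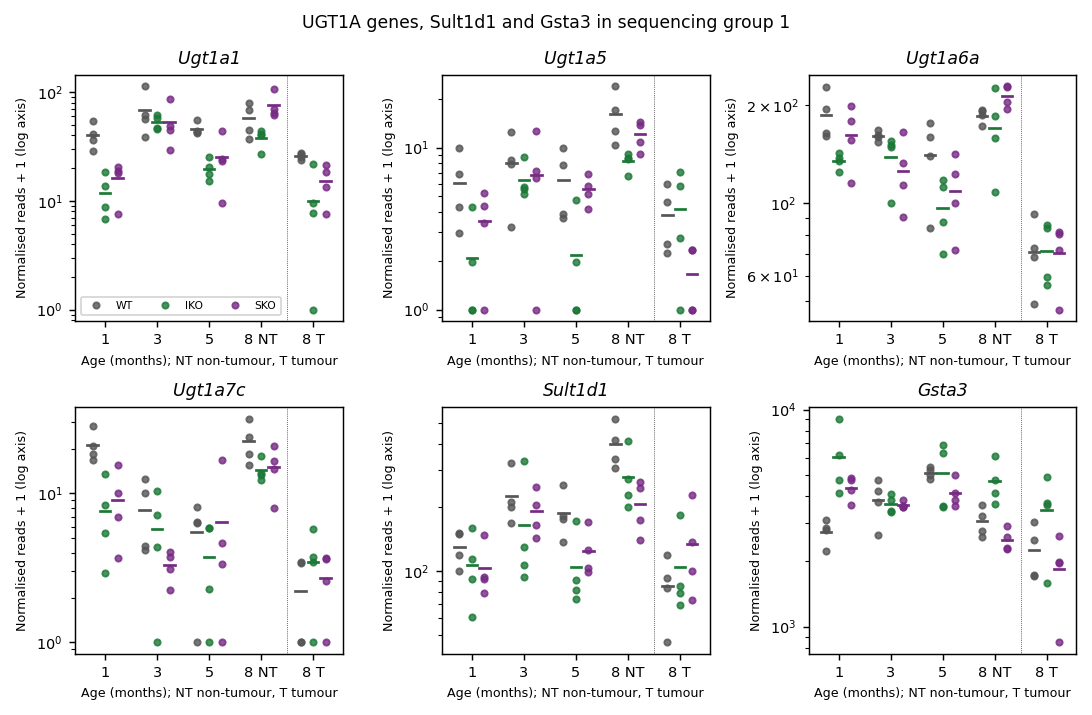
Normalised reads plus 1 (log axis) of the 4 UGT1A genes, Sult1d1 and Gsta3 in sequencing group 1, by age and tissue, for WT (grey), IKO (green) and SKO (purple), with 1 point per library and a bar at the mean. IKO Ugt1a1 lies below WT without overlap at 1 month, where IKO Gsta3 lies above it.

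Few of these genes differed in MKO. Of the 44, 3 were higher and 2 lower, against 1.58% and 1.13% of all genes (median 0.08 against 0.01). Sult1a1 fell by 0.43 ± 0.10 (adjusted p = 0.00905), with 456.3, 416.2 and 380.9 at 5 months against 841, 803.7 and 707.9 in WT, and did not overlap at 3 of 4 ages. Gsta4, which detoxifies the lipid peroxidation product hydroxynonenal, rose by 0.60 ± 0.14 (adjusted p = 0.0145), with 346.3, 432.6 and 649.2 at 1 month against 210, 216.3 and 194.7. Ugt2b34 (0.52 ± 0.13, adjusted p = 0.0212), Gstt3 (0.66 ± 0.19, adjusted p = 0.048) and Ugt1a7c (-0.38 ± 0.09, adjusted p = 0.0112) were also called. The count was 2 without the 3-month groups, and 3 without the first MKO or second WT library at 5 months or the first WT non-tumour library at 8 months.

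Single ages gave 0, 0, 0 and 2 calls in MKO at 1, 3, 5 and 8 months, against 0.185%, 0.0231%, 0.0463% and 5.74% of all genes. Unadjusted p fell below 0.05 for 8, 5 and 8 genes at the first 3 ages, limma-voom called none there, log2(CPM + 1) called 3 at 1 month, and library weights gave 5 at 1 month and 4 at 5 months. The 8-month calls were Ugt1a7c (-0.56) and Gstm1, a count that library weights left at 1, a fit of only those groups at 0, and the loss of the first WT library at 0, of the second MKO or second WT library at 1. Gstm1 had 102219, 179053 and 96136 in MKO non-tumour liver and 49971, 54394 and 56839 in WT, without overlap (1.17, adjusted p = 0.0167). Macrophage markers summed to 8178 to 15623 in those MKO livers and 3219 to 7286 in WT, and their part was not tested. The interaction with stage passed for Ugt1a1 (adjusted p = 0.00597, 0.339% of all genes): MKO had 48, 45.72 and 35.25 at 1 month against 13.13, 19.77 and 13.12, a difference of 0.83, and at 5 months the difference was -0.73.

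Direct comparison of knockouts within a sequencing group separated these patterns. Between SKO and IKO 25 of 44 genes differed (13 higher in SKO, 12 lower, against 22.1% of all genes), with Gstm3 higher by 1.28, Ugt2b34 by 0.68 (adjusted p = 8.68e-09), and Sult5a1 (-1.21), Sult1a1 (-0.91) and Gstp3 (-0.74) lower in SKO. Between BKO and MKO 17 differed (2 higher in BKO, 15 lower, against 15% of all genes). Gstm2 (-2.21, adjusted p = 1.59e-11), Gstt3 (-1.59), Gstm6 (-1.23, adjusted p = 5.47e-13) and Gsta3 (-0.83) were lower in BKO, and Gsto1 (0.53) and Gsta1 (0.56) higher. For BKO, 0 interactions with stage passed against 0.663% of all genes, with 9 at an unadjusted p below 0.05, the smallest adjusted p being 0.164 for Ugt2b37. There limma-voom called none and library weights 2.

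In ageing WT liver, 8 months against 1 month, 5 genes were higher and none lower in sequencing group 1 (7% of all genes). They were Sult1d1 (1.43), Gstt3 (1.31), Sult1b1 (0.96), Gsta2 (0.76, with part of its 3′ end shared) and Gstt1 (0.68), and the count was 3 without the first WT non-tumour library at 8 months. In sequencing group 2 only Ugt1a7c was called, lower by 0.64 (1.72% of all genes), with n = 3 per group, and limma-voom, quantile normalization and 5 of 6 fits without 1 library called none.

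Tumours differed from the non-tumour liver of the same age in every genotype, with more genes lower than higher. In WT of sequencing group 1, 9 genes were higher and 21 lower (22.9% and 19.2% of all genes, median -0.34 against 0.04), in IKO 6 and 14 (18.2% and 15.1%), and in SKO 9 and 18 (21% and 18.7%). In sequencing group 2 WT had 5 higher and 15 lower (15% and 12%, median -0.39 against 0.02), BKO 8 and 11 (8.39% and 6.32%) and MKO 5 and 10 (9.76% and 7.56%). Other genes moved in the same samples. In WT of sequencing group 1, tumours had male-biased genes lower in 17 of 20 (median -3.98), pericentral markers in 14 of 18 (-1.16) and mitochondrial genome transcripts in 7 of 7 (-0.86), and had proliferation genes higher in 11 of 12, cholangiocyte markers in 8 of 12 and stellate markers in 9 of 14. Their summed levels were 12166 to 33704 in those tumours against 121932 to 252188 in non-tumour liver of all ages for male-biased genes, 3196 to 10655 against 29900 to 65585 for pericentral markers and 3048 to 6807 against 935.9 to 1688 for cholangiocyte markers. In WT of sequencing group 2 male-biased genes were lower in 18 of 20, pericentral markers in 11 of 18 and mitochondrial transcripts in 3 of 7, and proliferation genes higher in 12 of 12. Of 20 NRF2-associated genes, 13 were higher and 2 lower in WT tumours of group 1 (median 1.12). In WT tumours of group 2, 10 were higher and 4 lower (median 0.67). Of 10 hepatocyte markers, 5 were higher and 2 lower in WT tumours of group 1, and 4 and 1 in those of group 2. In the knockouts 10 to 15 of 20 male-biased genes, 6 to 11 of 18 pericentral markers and 0 (BKO) to 7 (SKO) of 7 mitochondrial transcripts were lower. Their part in the results was not tested. For BKO log2(CPM + 1) gave 3 higher and 13 lower. A fit of only the groups compared gave 0 calls in BKO, 1 in MKO and 11 in WT of sequencing group 2. That fit gave 12 in BKO once replicate numbers were a block, although the labels do not say that a number marks 1 animal. The BKO count of 19 was 6 without its second non-tumour library and 8 without its first tumour library, and the MKO count of 15 was 9 without its first non-tumour library and 8 without its second tumour library.

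Sult2a8, Ugt2b1, Ugt3a2, Ugt2a3 and Ugt2b38 were called lower in all 6 comparisons, and Sult1a1 was called higher in all 6. How many of all genes were called in 1 direction in all 6 was not counted, so these genes are only described. Sult2a8 had 2107, 2364, 2970 and 2006 in WT non-tumour liver and 273, 100.1, 71.92 and 290.7 in WT tumours, without overlap. Its differences were -3.67 in that WT, -3.44 in SKO, -1.44 in IKO, -3.58 in WT of sequencing group 2, -2.41 in BKO and -3.14 in MKO. Ugt2b1 had 2638, 4814, 2823 and 2555 in WT non-tumour liver and 501.6, 587.6, 518.3 and 523.5 in tumours, so every tumour library lay below every non-tumour one. Its differences ran from -1.49 in IKO to -2.81 in WT of sequencing group 2. Ugt3a2, which uses UDP-sugars other than glucuronate, ran from -1.12 in IKO to -3.07 in SKO, Ugt2a3 from -0.50 to -1.24, and Ugt2b38 from -1.05 to -1.57.

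Sult1a1 rose in every tumour comparison, from 1193, 925.6, 971.4 and 1219 in WT to 2192, 2447, 2851 and 1929 in its tumours. Its differences were 1.10, 1.30 and 1.48 in WT, IKO and SKO of sequencing group 1, and 0.52, 0.60 and 0.87 in WT, BKO and MKO of group 2. Gstk1 fell in 5 of 6 (MKO at -0.65, adjusted p = 0.0577) and Sult1b1 fell in 5 of 6 (MKO at -0.69, adjusted p = 0.0744). Gstm5 rose by 0.64 to 1.14 in 5 of 6 and by 0.49 in BKO, where it was not called (adjusted p = 0.0955). The 4 UGT1A genes were called lower in WT and SKO of sequencing group 1, 3 of them in IKO, and none in sequencing group 2. Whether the 2 sequencing groups differ in this was not tested.

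**Figure D5:**
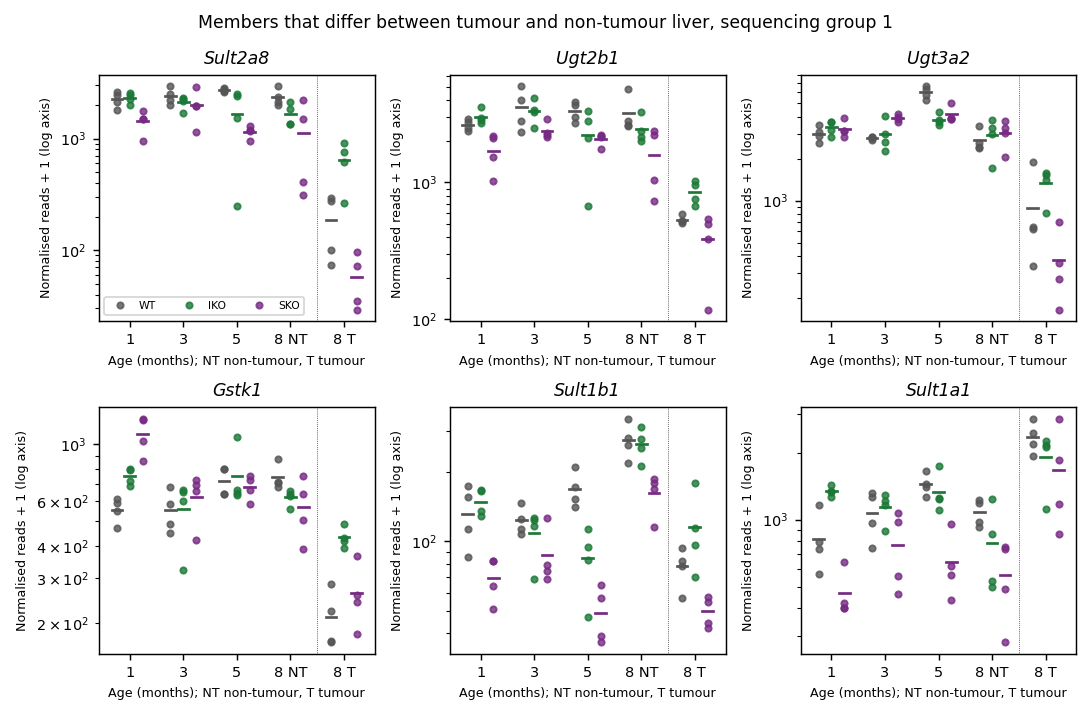
Normalised reads plus 1 (log axis) of 6 genes in sequencing group 1, by age and tissue, for WT (grey), IKO (green) and SKO (purple), with 1 point per library and a bar at the mean. In WT at 8 months, tumour (T) points lie below non-tumour (NT) points for Sult2a8 and Ugt2b1 and above them for Sult1a1.

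Knockout tumours differed from WT tumours in few of the 44 genes. IKO tumours had 3 higher and 2 lower (2.48% and 1.13% of all genes). Gstk1 had 429.2, 390.8, 417.6 and 485.7 in IKO tumours and 222.4, 169.2, 167.4 and 283.5 in WT tumours, without overlap (0.97 ± 0.19, adjusted p = 0.00088). Sult2a8 was 906.5, 262.9, 618.9 and 755.4 against 273, 100.1, 71.92 and 290.7, with overlap (1.71 ± 0.43, adjusted p = 0.0144), and Ugt2a3 was 150.6, 94.15, 102 and 175.7 against 85.9, 92.1, 68.2 and 61.52 (0.59 ± 0.17, adjusted p = 0.0395). Ugt1a1 fell to 20.82, 0, 6.801 and 8.542 from 24.54, 23.02, 26.04 and 26.54 (-0.86 ± 0.23, adjusted p = 0.0242). Sult2a2 (-1.05 ± 0.26, adjusted p = 0.014) was lower on a handful of reads, in a row that shares its 3′ end with other Sult2a genes. Male-biased genes were higher in 16 of 20 (sum 43888 to 106008 against 12166 to 33704) and pericentral markers in 8 of 18 (9932 to 22711 against 3196 to 10655) in the same tumours, and their part was not tested.

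The other knockouts gave 1 or 2 calls each in tumours. SKO tumours had Ugt3a2 lower, at 701.7, 163.8, 355.8 and 273.9 against 1910, 628.7, 337.3 and 649 (-1.07 ± 0.28, adjusted p = 0.0291), with 0.679% of all genes higher and 1.04% lower. BKO tumours had Sult4a1, a brain-type sulfotransferase, higher at 9.881, 65.27 and 34.17 against 7.699, 2.435 and 7.769 (1.08 ± 0.24, adjusted p = 0.0264), with 0.386% higher and 0.162% lower. MKO tumours had Gstp3 lower, at 231.3, 292.1 and 269.6 against 509.4, 536.8 and 362.2 without overlap (-0.76 ± 0.16, adjusted p = 0.00688), and Gstm1 higher, at 213975, 189627 and 153238 against 55094, 91754 and 136593 (1.06 ± 0.29, adjusted p = 0.03), with 2.99% higher and 1.04% lower. Macrophage markers were higher in 11 of 15 in MKO tumours (sum 7534 to 14759 against 3284 to 3824), and their part was not tested. Of these calls in knockout tumours, only Gstk1 in IKO passed under every alternative and with each library left out.

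Whether the tumour change itself differed from WT was tested as an interaction. It passed for Gstk1 in IKO (1.21 ± 0.27, adjusted p = 0.0322, 0.123% of all genes) and for Gstp3 in MKO (-1.05 ± 0.23, adjusted p = 0.0445, 0.131% of all genes). The Gstp3 call was lost with limma-voom, log2(CPM + 1), quantile normalization, library weights, the stricter filter and the replicate block. With 1 library left out, none of the 44 passed in 12 of 16 fits for IKO and in 7 of 12 for MKO. In WT tumours Gstk1 fell by 1.71 and in IKO tumours by 0.50. It passed for 0 of 44 in SKO and in BKO (0.0308% of all genes in each), where unadjusted p fell below 0.05 for 11 and 5 genes, and limma-voom and log2(CPM + 1) called none either. The conjugation genes together took 0.731% (BKO at 3 months) to 2.34% (MKO tumours) of listed reads as group means, a share made mostly of Gstm1.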

How the data were processed

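Polyadenylated 3′ ends of liver RNA were counted (MAPS libraries, Illumina HiSeq2000, per the labels). The submitters' processing notes name STAR 2.7.10a, HTSeq 2.0.2, DESeq2 1.32.0 and GRCm38/mm10, without roles. The deposited values are log2 values after a variance-stabilising transform, 1 per gene and library, with a floor of 3.8289 standing for 0 reads. When the transform was inverted, 100.0% of values under 1000 reads came out whole (tolerance 0.05). These recovered reads, divided by size factors, are the levels given, while tests used the deposited log2 values.

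Each sequencing group was fitted with limma 3.58.1 (R 4.3.3), 1 mean per group and a trend on the mean. Benjamini-Hochberg adjustment ran over 12966 genes. The fit was tested on simulated data. Depth sets the precision of genes with few reads, and all errors are spreads between libraries.

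The genes and lists were chosen with earlier results of these data known. All 44 may be named; values are given for up to 5 called rises and falls per knockout and superfamily (3 for tumour against non-tumour liver), up to 4 interactions and up to 4 called genes per list. Where a 3′ end is shared was found with 36-base stretches of the last 300 transcript bases.

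Replicate numbers were checked for pairing in 26 pairs of groups. Numbers counted as pairing where the deviations of all same-numbered libraries from their group means correlated above a set threshold. That held in 2. BKO tumour and non-tumour liver had correlations of 0.23 to 0.33, and MKO and WT non-tumour liver at 8 months had 0.12 to 0.3. MKO and WT libraries cannot come from the same animals. Whether 2 of 26 is more than chance gives was not tested, so the numbers are not taken to mark animals. Alternatives were other normalizations, filters and models, only the groups compared, library weights, a replicate block and leaving out each library. Leaving out the 3-month groups and blocking only the groups compared were chosen after seeing the data. The alternative without the filter was the same as the main fit, since the filter removed no gene.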

Additional observations from a re-analysis of the deposited data

Results flagged for a closer look

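The check for a library far from the other 3 ran on 47 combinations of a gene and a group of 4 libraries, and 4 were flagged, where chance flags about 1 in 20. Gstm3 was 6357 normalised reads in the first SKO library at 1 month, against 3205 to 3460 in the others. Gstm7 was 3000 in the second WT library at 1 month of sequencing group 1, against 1463 to 1615. Ugt2b1 was 4814 in the second WT non-tumour library at 8 months, against 2555 to 2823. Sult2a2 was 5.329 in the second IKO tumour library, and 0 in the other 3.

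The difference between SKO and WT changed with age for Gstk1 (adjusted p = 0.00684), Gstt3 (0.0223), Gstm7 (0.0341) and Gstt2 (0.038). The difference between MKO and WT changed with age for Ugt1a1 (adjusted p = 0.00597). The change from non-tumour liver to tumour differed between IKO and WT for Gstk1 (adjusted p = 0.0322), and between MKO and WT for Gstp3 (adjusted p = 0.0445). With 1 library left out, no gene passed in 12 of 16 fits for IKO and in 7 of 12 for MKO, and the Gstp3 difference was also lost under most alternatives.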

How the results depend on the processing

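Over the 14 comparisons there were 189 calls, of which 103 passed under every alternative and with each library left out, and none reversed direction. Another 78 were lost in at least 1 alternative and 65 with at least 1 library left out, and a call can be in both counts. With only the groups compared, calls fell from 1 to 0 in BKO tumours, from 5 to 1 in IKO tumours, from 2 to 0 in MKO tumours, from 1 to 0 in SKO tumours, from 19 to 0 in BKO tumour against non-tumour liver, from 15 to 1 in MKO and from 20 to 11 in WT of sequencing group 2, fits with fewer libraries behind the spread. Library weights gave 0 in MKO and in SKO tumours, quantile normalization gave 2 in BKO, 1 in MKO and 2 in SKO tumours, and MKO non-tumour liver gave 2 without the 3-month groups. With the replicate block the non-tumour counts were 6 (IKO), 22 (SKO), 17 (BKO) and 5 (MKO), and in BKO tumour against non-tumour liver 18, or 12 with only those groups, and the block also took the MKO tumour effect from 1 to 0 and moved no other count by over 1.5 times. With 1 library left out, counts ranged in non-tumour liver from 3 to 6 (IKO), 20 to 23 (SKO), 14 to 18 (BKO) and 3 to 6 (MKO), in tumours from 2 to 8, 0 to 2, 0 to 2 and 0 to 5, and in tumour against non-tumour liver from 15 to 21 (IKO), 23 to 30 (SKO), 27 to 31 and 16 to 21 (WT), 6 to 21 (BKO) and 8 to 21 (MKO). The median of all genes moved by 0.135 in SKO non-tumour liver, by 0.13 in SKO tumours and by -0.127 in WT tumours of sequencing group 2 on log2(CPM + 1). Other causes were not tested. Few reads limit Gsta5, Sult2a2, Sult2b1, Sult4a1 and Ugt1a5.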

Other observations

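Among 15 transporters that carry conjugates or take up bile acids and drugs, SKO non-tumour liver had 4 higher and 5 lower. In SKO 12% of all genes were higher and 10.9% lower. The basolateral efflux pump Abcc4 was up by 1.14 ± 0.20 (adjusted p = 1.47e-05) and the uptake carrier Slco1a1 lower by 1.81 (log2 difference -1.81 ± 0.34, adjusted p = 5.79e-05). BKO had 1 higher and 5 lower, against 10.6% and 9.04% of all genes. Slco1b2, the liver uptake carrier of bilirubin conjugates, was at -1.98 ± 0.26 (adjusted p = 6.09e-07) in BKO. Abcc2, which exports glucuronides into bile, was called lower in IKO (-0.30), SKO (-0.31) and BKO (-0.37). IKO had none higher and 2 lower, against 3.87% and 5.17% of all genes. MKO had no transporter called, against 1.58% of all genes higher and 1.13% lower.

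Of 19 other conjugation genes, 1 was higher and 2 lower in IKO non-tumour liver (3.87% and 5.17% of all genes). SKO had 3 and 3 (12% and 10.9%), BKO 2 and 4 (10.6% and 9.04%) and MKO 0 and 0 (1.58% and 1.13%). The thiopurine methyltransferase Tpmt was lower in IKO (-0.88 ± 0.13, adjusted p = 3.91e-06) and higher in BKO (0.62 ± 0.15, adjusted p = 0.0033). Mgst1, the microsomal glutathione transferase, was higher in SKO (0.33) and lower in BKO (-0.72 ± 0.16, adjusted p = 0.00102).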
